A study of Rattus norvegicus with 30 samples.

Results

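Transcripts of 5 genes were followed in rat testis, those of transition proteins 1 and 2 (Tnp1, Entrez Gene 24839, and Tnp2, 24840) and of protamines 1, 2 and 3 (Prm1, 24685, Prm2, 25345, and Prm3, 442921). They were chosen by symbol, through their Entrez Gene identifiers, among the 17322 genes listed, and all 5 had a row. RNA was measured in whole testes of Wistar rats, from prepubertal animals of 8.5, 14.5 and 24.5 days postpartum (dpp) to older ones of 30.5 dpp, 36.5 dpp and 53.5 dpp. It was also measured in explants taken at 8.5 dpp and kept in organotypic culture, of which D6, D16, D22 and D28 had 6, 16, 22 and 28 days. Explants lay on agarose gels at the gas-liquid interphase, at 34 °C, in αMEM with 10% Knock-out serum replacement, retinol and vitamin E. Each cultured library pooled 12 explants, from which the necrotic centre had been removed. There were 3 libraries per group, except at 14.5 dpp, where 1 of the 3 is labelled an outlier, is listed at 0 for all 17322 genes and was left out. The remaining 29 libraries were used.

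In round and elongating spermatids, the haploid cells that follow meiosis, most histones are replaced first by transition proteins and then by protamines, which pack the DNA of the sperm head. Their genes are transcribed in round spermatids, and the mRNAs are stored, bound to proteins, until the spermatids elongate. Rat sperm chromatin is known to carry mainly protamine 1. Prm3 lies in the same gene cluster, but its product is acidic and is not known to bind DNA. The question addressed was when these transcripts appeared in vivo and whether they appeared in culture.

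In the RefSeq gene order of the rat (GRCr8), Prm1, Prm2, Prm3 and Tnp2 follow each other on chromosome 10, while Tnp1 lies on chromosome 9. The 250 bases before the annotated start were read from RefSeq for 4 of the 5 genes, because the members appeared together in vivo. Only sequences with a match to a searched motif are shown, and no motif matched in all of those shown. A link between the motifs and the joint appearance was not tested. The motifs were chosen after these sequences had been seen. They were TGACGTCA, the cAMP response element, its variant TGACTTCA and its shorter form TGACG, which TGACGTCA contains, all on both strands, and TATAA on the strand of the gene. Capitals mark the matches.
Tnp1 (chr9:82044279-82044528, minus strand): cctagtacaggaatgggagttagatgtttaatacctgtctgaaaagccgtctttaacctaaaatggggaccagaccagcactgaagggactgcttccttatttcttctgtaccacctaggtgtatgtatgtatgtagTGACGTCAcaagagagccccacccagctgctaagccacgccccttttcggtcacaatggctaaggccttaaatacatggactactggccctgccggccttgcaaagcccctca
Prm1 (chr10:5378490-5378739, plus strand): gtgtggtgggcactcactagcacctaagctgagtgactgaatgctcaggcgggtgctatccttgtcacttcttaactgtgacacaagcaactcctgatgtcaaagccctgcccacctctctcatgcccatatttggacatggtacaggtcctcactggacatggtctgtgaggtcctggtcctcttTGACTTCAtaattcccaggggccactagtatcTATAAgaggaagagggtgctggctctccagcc
Tnp2 (chr10:5386485-5386734, plus strand): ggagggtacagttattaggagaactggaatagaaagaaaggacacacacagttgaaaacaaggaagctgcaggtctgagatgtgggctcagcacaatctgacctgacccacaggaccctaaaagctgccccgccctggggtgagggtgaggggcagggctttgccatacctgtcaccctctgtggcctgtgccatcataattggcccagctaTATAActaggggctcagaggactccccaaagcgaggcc
TGACGTCA stood 113 to 106 bases before the start of Tnp1, and 1.59% of 33469 rat promoters of this length hold it. TGACTTCA stood 64 to 57 bases before the start of Prm1 and is held by 1.43% of these promoters. TATAA stood 32 to 28 bases before the start of Prm1 and 38 to 34 before that of Tnp2, against 16.7% of all promoters. TGACG, found in 18.2% of all promoters, matched in Tnp1 on both strands, within TGACGTCA. The window of Prm3 (chr10:5384144-5384393) held none of these letters.

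Values are in FPKM, fragments per kilobase of transcript scaled to all mapped reads, so levels of different genes may be compared per length. The files give no counts, so depth is unknown. From 12520 to 13563 genes were above 0 in each library. A value of 0 can be a failed estimate, since 6 of 19 housekeeping genes with a row were at 0 in at least 1 library and Ppia, Hprt1 and Rps18 were at 0 in all 29. Members are therefore described as listed at 0. Summed values of 6 Sertoli cell markers ranged from 238 to 3834 FPKM per library, so Sertoli cell transcripts were present in all groups. All libraries are of bulk tissue, in which fewer cells of a type and less RNA per cell cannot be told apart. By the study's methods each cultured library drew on at least 3 juvenile males, with separate males for the 3 libraries of a time point.

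**Figure D1:**
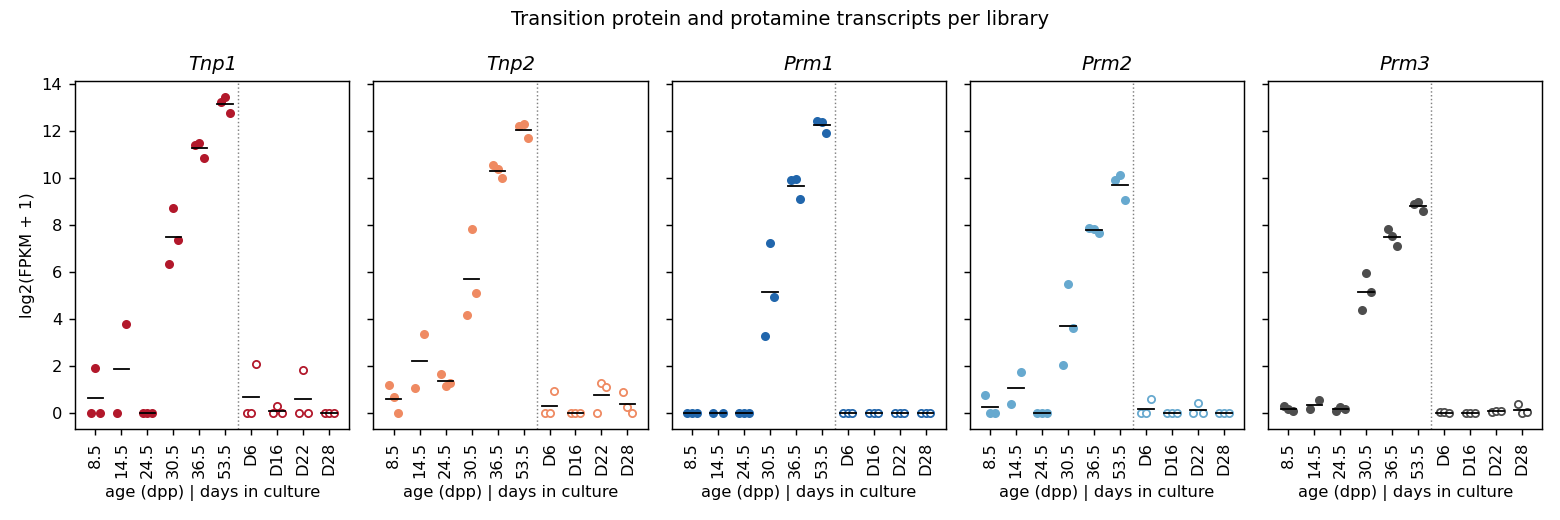
Level of each transcript in each library, as log2(FPKM + 1), against age in vivo (filled points) and days in culture (open points, right of the dotted line). Bars are group means, and ages are evenly spaced, not to scale. All 5 transcripts climbed from 30.5 to 53.5 dpp, while no cultured library exceeded 3.27 FPKM.

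Tnp1 was the most abundant member. This gene, which encodes the main transition protein, stood at 80.2, 423 and 164 FPKM in replicates 1, 2 and 3 of 30.5 dpp. It reached 2713, 2879 and 1855 FPKM at 36.5 dpp, and 9491, 11143 and 6990 FPKM at 53.5 dpp. These 3 ages did not overlap. Tnp1 had the highest value of all genes in 3 of 3 libraries of 53.5 dpp and in 2 of 3 of 36.5 dpp, and ranked 2 in the other. Before 30.5 dpp it was listed at 0 in 6 of 8 libraries, among them all 3 of 24.5 dpp.

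Tnp2, the second transition protein gene, had 17.2, 224 and 34.1 FPKM in replicates 1, 2 and 3 of 30.5 dpp. It then had 1485, 1317 and 1008 FPKM at 36.5 dpp, and 4665, 5010 and 3273 FPKM at 53.5 dpp. Tnp2 was the only member above 1 FPKM in every library of 24.5 dpp, with 2.16, 1.21 and 1.48 FPKM, an age at which Tnp1 was listed at 0.

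Prm1, the gene of the main protamine of rat sperm, was listed at 0 in all 8 libraries of 8.5, 14.5 and 24.5 dpp. It had 8.75, 151 and 29.5 FPKM in replicates 1, 2 and 3 of 30.5 dpp. Values were 958, 999 and 555 FPKM at 36.5 dpp, and 5511, 5260 and 3872 FPKM at 53.5 dpp. Among all genes of a library, Prm1 thus moved from rank 345 to 5761 at 30.5 dpp to rank 2 to 6 at 53.5 dpp.

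Prm2 remained well below Prm1 in each of these 9 libraries. It had 3.19, 44.5 and 11.3 FPKM at 30.5 dpp, 232, 226 and 201 FPKM at 36.5 dpp, and 974, 1101 and 536 FPKM at 53.5 dpp. Its range at 53.5 dpp was therefore wide, with replicate 3 well below the other replicates. Prm3 had 20.1, 62.0 and 34.3 FPKM at 30.5 dpp, 229, 186 and 138 FPKM at 36.5 dpp, and 472, 507 and 390 FPKM at 53.5 dpp. The ages did not overlap for Prm2 or Prm3 either.

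The order of the levels changed with age. Tnp1 was the highest member in all 9 libraries from 30.5 dpp on. Prm3 was the second in 2 of 3 libraries of 30.5 dpp but the lowest in all 6 libraries of 36.5 and 53.5 dpp. At 36.5 dpp Tnp2 (1270 ± 242 FPKM, SD, n = 3) exceeded Prm1 (838 ± 245) in 3 of 3 libraries. At 53.5 dpp Prm1 (4881 ± 883) exceeded Tnp2 (4316 ± 920) in 3 of 3, although these group means lay within 1 SD of each other. Prm2 (220 ± 16.4 FPKM) and Prm3 (184 ± 45.4) also lay close at 36.5 dpp, and at 53.5 dpp they stood at 870 ± 296 and 456 ± 59.9 FPKM. Together the 5 members took 0.0419% to 0.289% of the summed FPKM of a library at 30.5 dpp, 1.14% to 1.68% at 36.5 dpp and 4.04% to 6.05% at 53.5 dpp.

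From 24.5 to 30.5 dpp, all 5 members rose on the log2(FPKM + 1) scale. The background was high, since 39.0% of 11492 genes tested were called in either direction, 13.5% higher and 25.5% lower. The difference was largest for Tnp1, at 7.48 (standard error 0.53, limma adjusted p = 0.000109), followed by Prm1 at 5.15 (0.86, adjusted p = 0.00186). Prm3 followed at 4.98 (0.36, adjusted p = 0.000118), and Tnp2 at 4.34 and Prm2 at 3.73 had adjusted p = 0.00308 and 0.00389. The median over all genes tested was -0.39. Prm1, Prm2, Prm3 and Tnp1 entered the test only through the later age, so their count by itself carries no weight.

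Markers of spermatids moved with this step. Of 10 markers of elongating spermatids, 9 were called higher, and all 9 markers of round spermatids with a row were called higher, while 2 of 10 spermatocyte markers were higher and 2 lower. Only 6 of these 10 elongating and 5 of these 9 round spermatid markers passed the filter when D16 was compared with 24.5 dpp. The others entered here only through the later age, so their count by itself carries no weight. Summed marker levels went from 110 to 154 FPKM to 873 to 2075 FPKM for elongating spermatids, and from 107 to 191 FPKM to 686 to 1092 FPKM for round spermatids. Some round spermatid markers rose earlier than the members. From 14.5 to 24.5 dpp, 4 of 5 tested were called higher, as were 10 of 10 spermatocyte and 2 of 8 elongating spermatid markers. In that step 35.6% of all genes tested were called in either direction. The part of these cells in the rise of the members was not tested.

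From 30.5 to 36.5 dpp, the 5 members rose again, whereas 7.54% of 11227 genes tested were called, 6.33% higher and 1.20% lower. Differences were 4.58 for Tnp2 (standard error 0.84), 4.51 for Prm1 (0.90), 4.05 for Prm2 (0.76), 3.77 for Tnp1 (0.55) and 2.33 for Prm3 (0.39), with limma adjusted p between 0.0170 and 0.0187. Every member of every 36.5 dpp library exceeded every 30.5 dpp library, but the share of all genes that separated in this way was not counted. The calls depended on single libraries. Without replicate 3 of 30.5 dpp, or without any 1 replicate of 36.5 dpp, 0 members were called, with adjusted p between 0.0530 and 0.0733 and differences of at least 2.16. The number called over all genes then fell from 846 to between 8 and 60. Among the markers, 8 of 10 for elongating and 7 of 9 for round spermatids were called higher, and their part in the rise was not tested.

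From 36.5 to 53.5 dpp, the 5 members rose further, where 7.86% of 11033 genes tested were called, 2.88% higher and 4.98% lower. Prm1 rose most, by 2.57 (standard error 0.25, limma adjusted p = 0.00196). Prm2 rose by 1.92 (0.26, adjusted p = 0.00449), Tnp1 by 1.89 (0.23, adjusted p = 0.00354), Tnp2 by 1.76 (0.21, adjusted p = 0.00335) and Prm3 by 1.32 (0.20, adjusted p = 0.00526). Under quantile normalization Tnp1 (0.19, adjusted p = 0.454) and Tnp2 (0.67, adjusted p = 0.0502) were no longer called. This method sets the top values of all libraries equal, and both genes stand among them.

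At this step the marker lists parted. Of the elongating spermatid markers 6 of 10 were called higher, with a median difference of 1.51, whereas 0 of 9 round spermatid markers were called in either direction, with a median of 0.10. The highest among the former were Oaz3, an ornithine decarboxylase antizyme of spermatids (2.21), Spem1 (2.19) and Odf1, a protein of the outer dense fibres of the sperm tail (2.17). The summed level of elongating spermatid markers went from 4339 to 5244 FPKM to 17586 to 17802 FPKM, and that of round spermatid markers from 1618 to 1686 FPKM to 1624 to 2149 FPKM. Their part in the rise of the members was not tested.

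**Figure D2:**
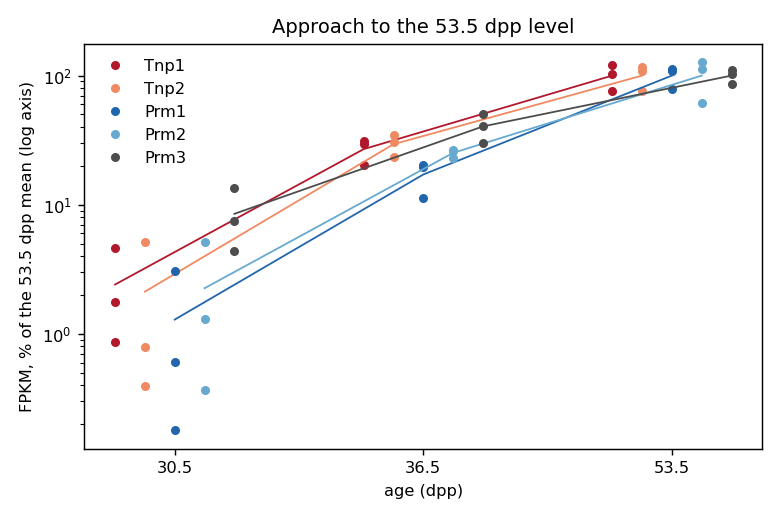
FPKM of each member as a percentage of its mean at 53.5 dpp, on a log axis, at the 3 ages with all members above 0 (evenly spaced, not to scale). Points are libraries and lines join group means. The group means of Prm3 were highest and those of Prm1 lowest at both 30.5 and 36.5 dpp, while the libraries of several members overlapped.

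Relative to its own mean at 53.5 dpp, Prm3 had the highest group mean before that age. It stood at 8.51% ± 4.68 at 30.5 dpp and 40.4% ± 9.95 at 36.5 dpp (SD, n = 3). Prm1 had the lowest means, at 1.29% ± 1.57 and 17.2% ± 5.03. Tnp1, Tnp2 and Prm2 lay between them, at 2.41%, 2.12% and 2.26% at 30.5 dpp and at 27.0%, 29.4% and 25.2% at 36.5 dpp. At 36.5 dpp the libraries of Prm3 (30.3% to 50.2%) did not overlap those of Prm1 (11.4% to 20.5%) or Prm2 (23.1% to 26.6%), but they overlapped those of Tnp1 (20.1% to 31.3%) and Tnp2 (23.4% to 34.4%). Those of Prm1 overlapped Tnp1 as well.

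The ratio between members within a library does not depend on the scaling of that library. Prm1/Prm2 was 2.74, 3.39 and 2.62 at 30.5 dpp, 4.13, 4.42 and 2.76 at 36.5 dpp, and 5.66, 4.78 and 7.22 at 53.5 dpp. All 3 values of 53.5 dpp thus exceeded those of 36.5 dpp, with a log2 difference of 0.65 (standard error 0.27, exact two-sided permutation p = 0.1). Tnp1/Prm1 sets the transcripts of the main transition protein and of the main protamine against each other. This ratio was 9.17, 2.80 and 5.55 at 30.5 dpp, 2.83, 2.88 and 3.34 at 36.5 dpp, and 1.72, 2.12 and 1.81 at 53.5 dpp. It was lower in all 3 libraries of 53.5 dpp than in any of 36.5 dpp, with a log2 difference of -0.68 (standard error 0.12, exact two-sided permutation p = 0.1). With 3 libraries against 3 this is the smallest p possible, and all 8 ratio tests had a Benjamini-Hochberg adjusted p of 0.4.

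Tnp1/Tnp2 had means of 3.79 ± 1.65, 1.95 ± 0.203 and 2.13 ± 0.0949 at these ages in order (SD, n = 3), and Tnp2/Prm2 had means of 4.48 ± 1.27, 5.75 ± 0.699 and 5.15 ± 0.837. Both overlapped between neighbouring ages. At 30.5 dpp replicate 2, the library richest in all members, had Tnp1/Tnp2 and Tnp1/Prm1 ratios of 1.89 and 2.80, near those of 36.5 dpp. The ratios Tnp2/Prm1 and Prm1/Prm3 were added after the values had been seen and were not tested. Tnp2/Prm1 was 1.56 ± 0.249 at 36.5 dpp and 0.881 ± 0.0616 at 53.5 dpp. Prm1/Prm3 went from 1.24 ± 1.05 at 30.5 dpp to 4.52 ± 0.732 and 10.7 ± 0.910.

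**Figure D3:**
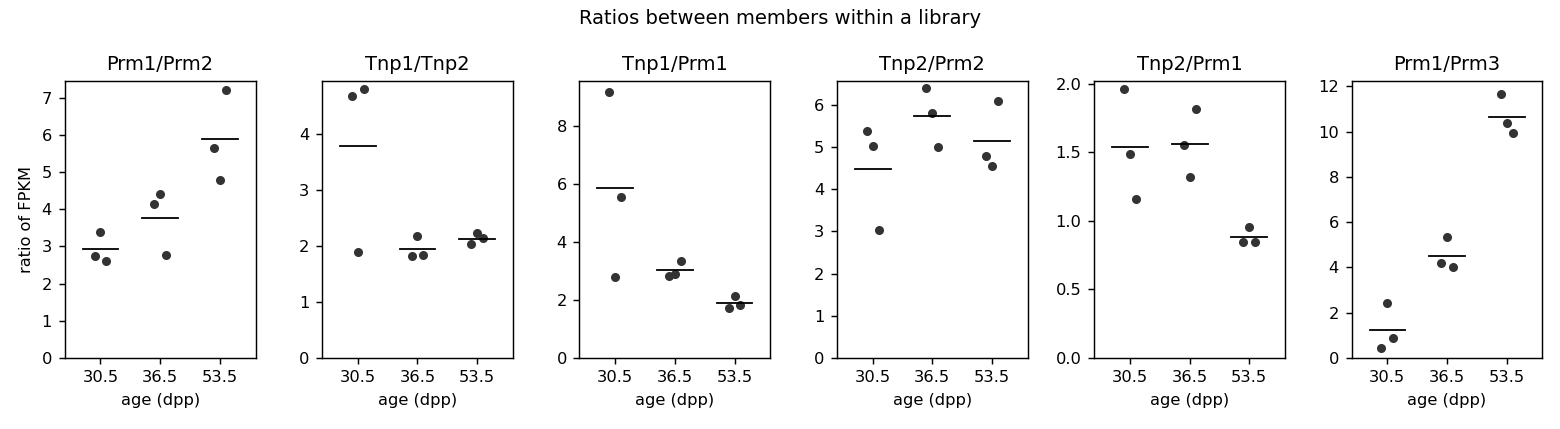
Ratio of the FPKM of pairs of members within each library at 30.5 dpp, 36.5 dpp and 53.5 dpp, on linear axes that start at 0. Points are libraries and bars are means. Prm1/Prm2 and Prm1/Prm3 were highest, and Tnp1/Prm1 and Tnp2/Prm1 lowest, at 53.5 dpp.

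Replicates varied jointly. At 30.5 dpp all 5 members were highest in replicate 2 and lowest in replicate 1. The highest library exceeded the lowest 17.3-fold for Prm1, 14.0-fold for Prm2, 13.0-fold for Tnp2, 5.27-fold for Tnp1 and 3.08-fold for Prm3. Summed spermatid markers had the same order, with 873, 2075 and 1213 FPKM for elongating and 686, 1092 and 898 FPKM for round spermatids in replicates 1, 2 and 3. Their part in this spread was not tested.

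At 36.5 and at 53.5 dpp, replicate 3 was the lowest for all 5 members. At 53.5 dpp the members summed to 15062 FPKM in replicate 3 against 21114 and 23021 FPKM in replicates 1 and 2. The summed elongating spermatid markers at 53.5 dpp were not lower in it, with 17802 against 17586 and 17718 FPKM, and neither were those of round spermatids, with 2149 against 1624 and 1857 FPKM. At 36.5 dpp replicate 3 was also the lowest for elongating spermatid markers, with 4339 against 5244 and 4879 FPKM in replicates 1 and 2.

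Before 30.5 dpp only low values were found. In the 8.5 dpp testes, the tissue from which explants were taken, the highest value was 2.85 FPKM (Tnp1, replicate 2), and the members summed to 0.0599 to 3.60 FPKM per library. The 14.5 dpp testes differed from each other. In replicate 2, Tnp1 had 13.1 FPKM, Tnp2 9.47, Prm2 2.40 and Prm3 0.490, while in replicate 1 they had 0, 1.11, 0.328 and 0.137 FPKM. Prm1 was listed at 0 in both, although it exceeded Prm2 in all 9 libraries from 30.5 dpp on. In replicate 2 the summed markers were also higher, with 43.7 against 23.6 FPKM for elongating spermatids, 10.1 against 7.21 for round spermatids and 86.5 against 35.3 for spermatocytes. Sertoli (1444 against 849 FPKM), Leydig (306 against 145) and erythroid (392 against 246) markers were higher in it too. Spermatogonium markers were close (327 against 319 FPKM), and macrophage (6.49 against 7.07) and peritubular (218 against 362) markers were lower. Their part in the difference was not tested. At 24.5 dpp, when spermatocyte markers had reached 1739 to 2452 FPKM, the members summed to 1.43 to 2.24 FPKM.

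Prm2, Tnp1 and Tnp2 passed the filter in the comparisons of 14.5 with 8.5 dpp and of 24.5 with 14.5 dpp. By limma, 0 of 3 were called in either step, where 15.7% and 35.6% of all genes tested were called. At an unadjusted p under 0.05 there were 0 in the former and 1 in the latter (Prm2), but the share of all genes under this p was not counted. Tnp2 had a difference of -0.86 from 14.5 to 24.5 dpp (adjusted p = 0.286), which was 0.29 without replicate 2 of 14.5 dpp (adjusted p = 0.386). Without replicate 1 of 14.5 dpp, differences from 8.5 to 14.5 dpp were 1.51 for Prm2, 3.17 for Tnp1 and 2.76 for Tnp2. Those from 14.5 to 24.5 dpp were then -1.77, -3.81 and -2.02. These comparisons thus rest on 1 library.

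**Figure D4:**
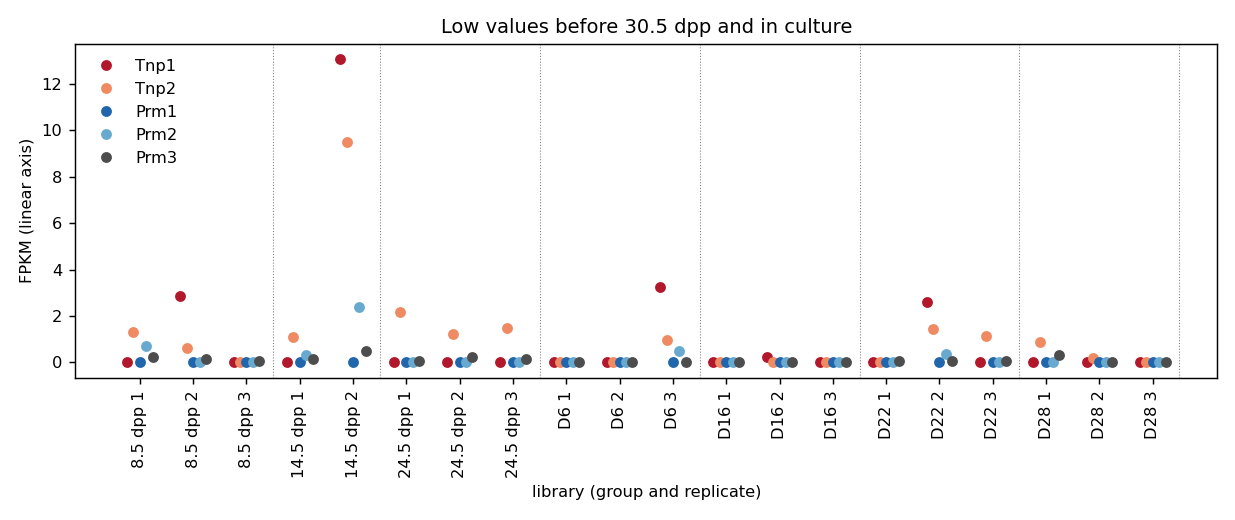
FPKM of the 5 members in each library of 8.5, 14.5 and 24.5 dpp and in each cultured library, on a linear axis. The highest values were those of replicate 2 at 14.5 dpp, and among cultured libraries replicate 3 of D6 and replicate 2 of D22 stood out with Tnp1 at 3.27 and 2.62 FPKM.

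In culture, the transcripts were near or at 0 at all times. Prm1 was listed at 0 in all 12 cultured libraries. Tnp1 had 3.27 FPKM in replicate 3 of D6, 0.236 in replicate 2 of D16 and 2.62 in replicate 2 of D22, and was listed at 0 in the other 9. Prm2 had 0.510 FPKM in replicate 3 of D6 and 0.363 in replicate 2 of D22, and was listed at 0 in the other 10. Tnp2 was above 0 in 5 libraries, with 0.959 FPKM in replicate 3 of D6, 1.45 and 1.16 in replicates 2 and 3 of D22, and 0.901 and 0.212 in replicates 1 and 2 of D28. Prm3 was above 0 in 8 libraries, but at most at 0.322 FPKM (replicate 1 of D28).

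The low values clustered in few libraries. Replicate 3 of D6 and replicate 2 of D22 together held the highest cultured values of Prm2, Tnp1 and Tnp2, with members that summed to 4.74 and 4.50 FPKM. The other 10 cultured libraries summed to at most 1.23 FPKM. The highest cultured value was 0.0586% of the 53.5 dpp mean for Prm2, 0.0705% for Prm3, 0.0355% for Tnp1 and 0.0337% for Tnp2. These values were within the range of the 8.5 dpp testes for Prm2, while for Prm3, Tnp1 and Tnp2 they were just above its highest values, as 0.254 FPKM for Prm3 and 2.85 for Tnp1.

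Against testes of the same age, D16 tissues could be tested for Tnp2 alone. It was listed at 0 in all 3 libraries and was called lower than at 24.5 dpp, with a difference of -1.37 (standard error 0.14, limma adjusted p = 0.000163), where 43.6% of 11658 genes were called, 25.3% higher and 18.3% lower. Tnp2 passed the filter through the 24.5 dpp testes alone, and with all 10 groups in 1 fit it was not called (adjusted p = 0.0530). D22 tissues had lower levels of all 5 members than 30.5 dpp testes, where 65.0% of 12118 genes tested were called, 22.9% lower and 42.1% higher. Differences were -6.86 for Tnp1 (standard error 0.71), -5.15 for Prm1 (0.88), -5.08 for Prm3 (0.36), -4.91 for Tnp2 (0.89) and -3.58 for Prm2 (0.77), with adjusted p from 9.71e-06 to 0.00350. The groups did not overlap for any member, and the share of all genes without overlap was not counted.

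D28 tissues were compared with 36.5 dpp testes, where 70.3% of 12210 genes tested were called, 23.6% lower and 46.7% higher, with a median over these genes of 0.64. All 5 members were lower. Differences were -11.25 for Tnp1 (standard error 0.17), -9.89 for Tnp2 (0.26), -9.66 for Prm1 (0.22), -7.78 for Prm2 (0.10) and -7.36 for Prm3 (0.20), with limma adjusted p from 6.25e-09 to 6.35e-08. As cultured values at 0 set the lower end, these differences follow from the level at 36.5 dpp and the pseudocount, and no fold is given. Members passed the filter in the D22 and D28 comparisons only through the testes, which were high, except Tnp2 at D22. Its D22 median of 1.16 FPKM passed as well.

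Cell markers in the D28 comparison are given beside this result. All 10 markers of elongating and all 9 of round spermatids were called lower, with medians of -7.47 and -7.11, and so were 10 of 10 spermatocyte markers, with a median of -4.88. When D28 was compared with 8.5 dpp, 5 elongating spermatid, 3 round spermatid and 8 spermatocyte markers passed the filter. The others entered here only through the older testes. Among the round spermatid markers Acrv1, Catsper3 and Sun5 were listed at 0 in all D28 libraries. Summed elongating spermatid markers were between 18.6 and 22.6 FPKM at D28, of which Hook1, a gene also transcribed at 8.5 dpp, held 14.8 ± 3.94 (SD, n = 3). The sum of round spermatid markers was between 5.05 and 6.76 FPKM. By contrast 6 of 6 spermatogonium markers and 5 of 6 Sertoli cell markers were called higher. Leydig cell markers were called lower in 4 of 6, among them Cyp17a1 (-5.80) and Insl3 (-5.35). Peritubular markers were called higher in 1 of 4, macrophage markers higher in 3 and lower in 1 of 4, and erythroid markers lower in 1 of 2. The part of these cell types in the lower level of the members was not tested.

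Cultured tissues were also set against the younger testes. Of the members, Tnp2 alone passed the filter in the comparison of D28 with 8.5 dpp, and it was not called, with a difference of -0.23 (standard error 0.35, limma adjusted p = 0.600), where 23.6% of all genes tested were called. Against 14.5 dpp, Prm2, Tnp1 and Tnp2 were tested and 0 were called at D6, D16, D22 or D28, where 7.94%, 11.9%, 12.9% and 13.6% of all genes tested were called. At an unadjusted p under 0.05 there were 1 at D6 (Tnp2) and 2 each at D16, D22 and D28 (Prm2 and Tnp2). The share of all genes under this p was not counted, so these numbers have no background. The moderated test of each single contrast, on which the later calls do not rest, gave limma adjusted p of 0.0229, 0.0385 and 0.0189 for Prm2 and 0.0176, 0.0867 and 0.0333 for Tnp2 at D16, D22 and D28. Differences at D28 were -1.09 for Prm2, -1.91 for Tnp1 and -1.83 for Tnp2, and the F test over D16, D22 and D28 gave adjusted p of 0.0567, 0.322 and 0.0619. Leaving out replicate 1 of 14.5 dpp leaves 1 library there, the one with more spermatid transcripts. Differences at D28 were then -1.77 for Prm2, -3.81 for Tnp1 and -2.99 for Tnp2. Without replicate 1 of D22, 1 member (Tnp2) was called at D16, D22 and D28.

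The change with age was compared with the change in culture in 1 fit, as the difference between 36.5 and 24.5 dpp minus that between D28 and D16. This estimate largely restates the D28 comparison, since the members were at or near 0 in 24.5 dpp, D16 and D28 libraries. Prm1, Prm2, Prm3 and Tnp1 passed the filter through 36.5 dpp alone, and for Prm1 and Prm2, at 0 in the other 3 groups, the estimate is the 36.5 dpp level on the pseudocount scale. It was above 0 for all 5 members, where 13.0% of 12420 genes tested were called higher and 41.3% in either direction. The estimate was 11.35 for Tnp1 (standard error 0.21), 9.66 for Prm1 (0.25), 8.52 for Tnp2 (0.32), 7.78 for Prm2 (0.11) and 7.17 for Prm3 (0.23), with limma adjusted p from 2.65e-12 to 1.31e-09. From 16 to 28 days of culture, Tnp2 went from 0 in 3 libraries to 0.901, 0.212 and 0 FPKM, while Prm1 and Prm2 were listed at 0 at both times.

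**Figure D5:**
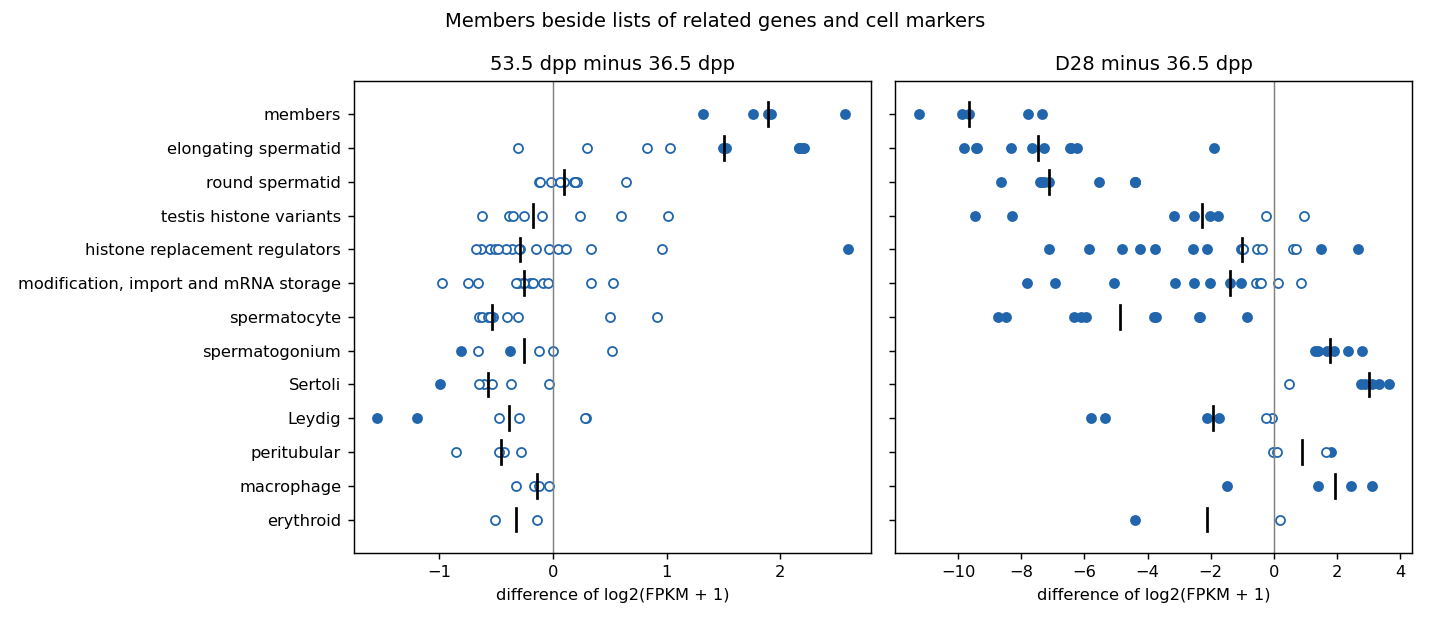
Difference of log2(FPKM + 1) per gene, between 53.5 and 36.5 dpp (left) and between D28 and 36.5 dpp (right), for the members and the gene lists. Filled points were called, open points were not, and vertical bars are list medians. On the left, the medians of the members and of the elongating spermatid markers were 1.89 and 1.51, and the other medians lay between -0.57 and 0.10. On the right, members and germ cell markers from the spermatocyte on lie left of 0.

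In D28 tissues against 36.5 dpp testes, genes that act in the exchange of histones for protamines were called lower more often than higher. Over all genes tested, 23.6% were called lower and 46.7% higher. Of 8 testis histone variants with a row, 6 were called lower at D28 than at 36.5 dpp, with a median of -2.27. Only 5 of the 8 passed the filter when D28 was compared with 8.5 dpp, so the others entered here through 36.5 dpp alone. The largest differences were those of Hils1 and H1f7, linker histones of spermatids, and of H2bc1, a testis H2B variant. Hils1 (-9.47) went from 936 ± 102 to 0.318 ± 0.158 FPKM (SD, n = 3), H1f7 (-8.28) from between 294 and 349 FPKM to between 0 and 0.131, and H2bc1 (-3.15) from 13.1 ± 0.527 to 0.586 ± 0.0842. The 2 not called, named after their values were seen, were H2az1 (-0.26) and H3f3b (0.95), variants found in many tissues.

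Of 16 regulators of histone replacement, 8 were called lower and 2 higher at D28, with a median of -1.01. Phf7 (-7.13), an E3 ligase acting on histones, had 519 ± 27.5 FPKM at 36.5 dpp and 2.75 ± 0.674 at D28. Brdt (-5.85), the testis bromodomain protein that binds acetylated histones, had 159 ± 14.3 and 1.78 ± 0.397 FPKM, and Nutm1 (-4.81), which recruits a histone acetyltransferase, had 82.2 ± 2.38 and 1.97 ± 0.313. Among those called higher was Pygo2 (2.67), named after its value was seen. From 36.5 to 53.5 dpp 1 of these 16 regulators was called, where 7.86% of all genes tested were called. It was the spermatid kinase gene Tssk6, again named after its value was seen, with a rise of 2.59 (standard error 0.14, limma adjusted p = 0.000387).

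Of 13 genes for modification, import and mRNA storage of these proteins, 8 were called lower and 0 higher at D28, with a median of -1.40. Ybx2 (-7.82), a protein that binds and stores germ cell mRNAs, went from 1014 ± 61.4 FPKM at 36.5 dpp to 3.60 ± 1.25 at D28. Camk4 (-6.92), a kinase that phosphorylates protamine 2, went from 179 ± 23.9 to 0.483 ± 0.213, and the chaperone gene Hspa4l (-5.06) from 104 ± 6.48 to 2.12 ± 0.171. The timing in vivo differed between these genes. Ybx2 stood at 618 ± 143 FPKM at 24.5 dpp, an age at which the members summed to 2.24 FPKM or less, and at 984 ± 46.9 at 53.5 dpp. Brdt likewise had 102 ± 32.1 FPKM at 24.5 dpp and 163 ± 10.6 at 53.5 dpp. Hils1 and H1f7, at 0.676 ± 0.268 and 0.211 ± 0.0294 FPKM at 24.5 dpp, appeared at 30.5 dpp with the members, at 274 ± 144 and 81.9 ± 47.7.

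Across the 29 libraries, members correlated with each other at a Pearson r of 0.979 to 0.993 on the log2(FPKM + 1) scale. These points share ages and libraries, so r is a description. The genes most like Prm1 were Ubqlnl (r = 0.999), Lrrc74a and Sppl2c, and those most like Prm3 were Ubqln5 (r = 0.999), Spz1 and Adam4l1. Nearest to Prm2 were Spem1 (r = 0.996), Garin3 and Oxct2b. Nearest to Tnp1 were Smim23 (r = 0.989), 2610318N02Rikl and Rnf133, and nearest to Tnp2 were Spmip9 (r = 0.993), 2610318N02Rikl and Cabs1. At 53.5 dpp their mean levels were below those of the members they resembled, with 450 FPKM for Ubqlnl, 354 for Spem1 and 276 for Smim23, except Spz1 at 539 FPKM, which was above Prm3.

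Among genes beside the members, most had lower means at 53.5 than at 24.5 dpp. This was also the direction of the median over all genes tested. It was -0.39 from 24.5 to 30.5 dpp, -0.22 from 30.5 to 36.5 dpp and -0.30 from 36.5 to 53.5 dpp. At D28, 46.7% of all genes tested were called higher than at 36.5 dpp. On either side of the cluster on chromosome 10, Litaf had 6.47 ± 1.81 FPKM at 24.5 dpp, 1.63 ± 0.116 at 53.5 dpp and 35.2 ± 6.85 at D28 (SD, n = 3), and Socs1, an inhibitor of cytokine signalling, had 5.07 ± 0.961, 1.44 ± 0.322 and 8.99 ± 3.13. Snn, Txndc11 and Dexi likewise had lower means at 53.5 dpp than at 24.5 dpp and higher means at D28 than at either. Ciita, a regulator of MHC class II genes, had a higher mean from 30.5 dpp on and was low in culture. Its mean was 1.12 FPKM at 24.5 dpp, its libraries ranged from 0.497 to 36.5 FPKM at 30.5 dpp, from 14.5 to 18.6 at 36.5 dpp and from 0.107 to 16.2 at 53.5 dpp, and it was at most 0.260 FPKM at D28. Beside Tnp1 on chromosome 9, Igfbp5, a binding protein of insulin-like growth factors, had 6.69 ± 3.11 FPKM at 24.5 dpp, 0.691 ± 0.257 at 53.5 dpp and 14.8 ± 1.01 at D28. Pincl, on the other side, also had its highest means in the older testes, but at low levels, with 0.00428 ± 0.00412 FPKM at 24.5 dpp, 0.130 ± 0.0141 at 30.5 dpp, 0.445 ± 0.167 at 36.5 dpp, 0.194 ± 0.0378 at 53.5 dpp and 0.0122 ± 0.0109 at D28. Differences between these neighbours and the members were not tested.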

How the data were processed

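The authors sequenced polyA RNA as 50 bp reads, aligned them with STAR 2.5.2a to the rat genome rn6 and deposited 1 FPKM value per gene and library, scaled to transcript length and mapped reads. Depth per library is unknown. Names came from a RefSeq table of GRCr8 (17172 of 17322 identifiers matched), and no coordinates were converted.

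Values were compared as log2(FPKM + 1) with limma 3.58.1 in R 4.3.3 (lmFit, eBayes) over all genes whose median reached 0.5 FPKM in a compared group. A gene was called when the Benjamini-Hochberg adjusted p was 0.05 or less and the medians differed 2-fold or more. For the interaction a log2 difference of at least 1 replaced that fold, and D16, D22 and D28 against 14.5 dpp used the F test of 1 fit. The fits of 53.5 against 36.5 dpp, D28 against 36.5 dpp and D6 against 14.5 dpp were tested on simulated data. Of 200 genes shifted upward by 2 on the log2 scale, 186 to 195 were recovered per draw, but 161 to 169 for D6 against 14.5 dpp. The shifted genes were drawn from those with a mean log2(FPKM + 1) above 1 in the reference group, and all others were left unchanged. Recovery of genes at or near 0, or of genes that fall, was therefore not tested. False calls were at most 10 per draw. Ratios used exact permutation tests (scipy 1.17.1, Python 3.11.15).

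The members and lists were chosen with earlier results of these data known. The genes named are the 5 members, per member the 3 genes of highest r, their neighbours, and up to 3 genes per list with the largest differences between D28 and 36.5 dpp. Pygo2, Tssk6, H2az1, H3f3b, Hook1, Catsper3, Sun5 and the genes named for their rise from 36.5 to 53.5 dpp were chosen after their values were seen. The value of 1 gene of these lists is not reported here. Housekeeping genes were listed after the files had been seen. Alternatives changed the pseudocount, filter, ratio, prior variance, normalization and groups in the fit, added a replicate block, and left out each library in turn.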

Additional observations from a re-analysis of the deposited data

Results flagged for a closer look

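For all 5 members the change with age in vivo differed from the change in culture, by a test of the difference itself. The difference between 36.5 and 24.5 dpp minus that between D28 and D16 was 11.35 for Tnp1, 9.66 for Prm1, 8.52 for Tnp2, 7.78 for Prm2 and 7.17 for Prm3 on the log2(FPKM + 1) scale. The members were at or near 0 at 24.5 dpp, D16 and D28, and all but Tnp2 passed the filter through 36.5 dpp alone. These values therefore largely restate the gap between D28 and 36.5 dpp on the pseudocount scale, and for Prm1 and Prm2 they equal it, so calls under alternatives say nothing of stability. Groups of 3 libraries were too small for a test of single outlying libraries.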

How the results depend on the processing

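The number of members called remained 5 in every alternative for 30.5 against 24.5 dpp, D22 against 30.5 dpp, D28 against 36.5 dpp and the interaction, and 0 for D28 against 8.5 dpp. Groups at or near 0 fix the calls in the comparisons with 5, which are no sign of stability. It did not remain so elsewhere, and the cause was not tested unless given. From 36.5 to 53.5 dpp it fell from 5 to 3 under quantile normalization. For D16 against 24.5 dpp it was 0 with all 10 groups in 1 fit (Tnp2, limma adjusted p = 0.0530) and 2 with no filter on low values, which lets more members in. For 24.5 against 14.5 dpp it was 1 in place of 0 with a pseudocount of 0.1 or 0.5, quantile normalization, all 10 groups in 1 fit or a trend in the prior variance. For D6 against 14.5 dpp it was 1 with all 10 groups. Against 14.5 dpp it was 1 at D16, D22 and D28 with a pseudocount of 0.1 or 0.5 or quantile normalization, and 1 at D16 and D28 with all 10 groups.

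When each library was left out in turn, the number of members called ranged from 0 to 5 for 36.5 against 30.5 dpp, from 0 to 2 for 14.5 against 8.5 dpp and for D6 against 14.5 dpp, and from 0 to 3 for 24.5, D16, D22 and D28 against 14.5 dpp. The highest numbers against 14.5 dpp came without its replicate 1, which leaves 1 library that is assumed to vary like the other groups. Tnp2 changed sign from 14.5 to 24.5 dpp without replicate 2 of 14.5 dpp, with a range from -2.02 to 0.29. The 8 ratio comparisons kept their direction in all alternatives.

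Same-numbered libraries did not deviate together (r from -0.0995 to 0.103, above 0.1 in 2 of 27 pairs), so the numbers were not taken to pair the samples. A replicate block changed no number of members called, and lowered the genes called for D6 against 14.5 dpp from 898 to 376. Depth is unknown, so values near 0 have no interval.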
